A study of Homo sapiens with 21 samples.

Results

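The 7 tumors described here were the untreated arm of an A549 xenograft experiment, and they made up 7 of the 21 RNA-seq samples in the series. Each came from the group labelled Control, whose mice received only the solvent mixture by daily oral gavage (3% DMSO, 7% ethanol, 5% PEG400 and 85% corn oil). No drug-treated sample entered any value below. A549-Luc2 cells, a luciferase-marked A549 line, had been mixed with Matrigel, and 100 microliters of the mix were injected under the skin of the hind flank of female athymic nu/nu mice aged 6 to 8 weeks. Mice were randomized, 10 to a group, at a mean tumor size of 80 to 100 mm3. The tumors are called control r1 to r7. The model has limits as a picture of lung cancer: it is a single cell line at a site outside the lung, in hosts that lack a thymus, and reads of mouse cells had been set aside before counting.

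A549 is an established line from a human lung adenocarcinoma. It is known to carry inactivated STK11, KEAP1 and SMARCA4 and a deletion over CDKN2A. KEAP1 normally targets the transcription factor NRF2 for degradation, so cells without it keep detoxifying and antioxidant genes switched on. In a growing xenograft, oxygen supply varies between regions, and the hypoxia-inducible factors switch on glucose uptake, glycolysis and pH control where it falls, whereas cell division draws on the E2F program of DNA replication and on the later program of mitosis.

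Total counts per tumor ran from 13818998 (control r7) to 17865119 (control r3), with a median of 15082627. Protein-coding genes took 95.2% to 96.5% of the counts and the 13 mitochondrial mRNAs 6.98% to 9.13%. Among the 13636 genes tested, those kept by the expression filter with a mean of at least 1 log2 CPM (the count scaled by library size and TMM factors), the median SD between tumors was 0.28 log2 CPM. The libraries differed in their trend with the GC content of the exons. This slope, in log2 CPM per 10 percentage points of GC relative to the mean of the 7 tumors, was highest in control r1 (0.27) and lowest in control r7 (-0.28). In a principal component analysis of these tumors, PC1 took up 35.8% of the variance and PC2 28.9%. PC1 followed the GC slope (Pearson r = 0.91, exact permutation p = 0.00595, 0.0119 after adjustment over PC1 and PC2; Spearman rho = 0.93, exact permutation p = 0.00675), and r was 0.85 without the 2 tumors of most extreme slope. Both measures were computed from the same log2 CPM values, so these p-values are not those of 2 separate measurements. With the components computed again from 6 tumors, r was 0.27 without control r1, 0.50 without control r7 and 0.76 without control r3, and whether the leading component was then still the same one was not tested. Scores of gene programs below were therefore taken after removal of each library's GC trend. Values with the trend kept are given where they change a call and where scores are set against the GC slope. A principal component analysis with the trend removed gave a PC1 of 36.1% of the variance. The counts of control r1 and r3, the closest pair, had a chi-square of 15.9 per degree of freedom over genes, which covers counting error only and shows that no library was present more than once.

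For 4 of the programs described below, the upstream sequence of a few genes is shown first, since each program has a known motif. The RefSeq promoter table (GRCh38.p14) held 19 of the 22 hypoxia and glycolysis genes, 23 of the 34 NRF2 target genes, 16 of the 20 DNA replication genes and 17 of the 22 mitosis genes. In each list, the genes shown are the 3 of highest SD between tumors whose 250 bases before the start held the motif in a window outside annotated exons, and all sequences read 5′ to 3′ on the strand of the gene. Capitals mark 1 match to the motif in each window, on either strand, and the MKI67 window holds a further TTTGAA match in lower case.
For hypoxia genes the motif is ACGTG, the core bound by hypoxia-inducible factors.
HK2 (chr2:74834049-74834113, plus strand): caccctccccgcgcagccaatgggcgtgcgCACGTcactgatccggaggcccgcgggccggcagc
ANGPTL4 (chr19:8363905-8363955, plus strand): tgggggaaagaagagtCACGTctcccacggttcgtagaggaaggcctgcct
ALDOA (chr16:30065532-30065596, plus strand): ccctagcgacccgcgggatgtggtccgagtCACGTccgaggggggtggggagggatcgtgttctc
For NRF2 target genes the motif is TGACNNNGC, the core of the antioxidant response element.
CYP4F11 (chr19:15934985-15935053, minus strand): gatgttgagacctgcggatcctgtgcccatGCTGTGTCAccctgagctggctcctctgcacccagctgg
GPX2 (chr14:64942829-64942897, minus strand): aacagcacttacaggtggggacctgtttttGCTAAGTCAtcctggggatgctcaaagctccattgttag
ME1 (chr6:83431150-83431218, minus strand): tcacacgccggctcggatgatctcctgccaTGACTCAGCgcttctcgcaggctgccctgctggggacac
For DNA replication genes the motif is TTTCCCGC, a site of E2F factors.
GINS2 (chr16:85688955-85689015, minus strand): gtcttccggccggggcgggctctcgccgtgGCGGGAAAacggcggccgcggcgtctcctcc
CDT1 (chr16:88803724-88803788, plus strand): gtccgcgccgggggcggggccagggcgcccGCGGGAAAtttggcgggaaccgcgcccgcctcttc
PCNA (chr20:5126644-5126711, minus strand): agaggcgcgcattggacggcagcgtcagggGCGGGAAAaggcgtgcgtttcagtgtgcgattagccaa
For mitosis genes the motif is TTTGAA, the cell cycle homology region.
CDC20 (chr1:43358886-43358951, plus strand): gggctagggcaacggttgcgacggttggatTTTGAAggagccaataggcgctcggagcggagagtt
TOP2A (chr17:40418012-40418077, minus strand): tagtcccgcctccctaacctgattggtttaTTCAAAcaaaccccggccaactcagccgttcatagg
MKI67 (chr10:128126424-128126482, minus strand): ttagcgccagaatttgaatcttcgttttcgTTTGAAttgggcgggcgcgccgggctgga
ACGTG was present on either strand in 13 of the 19 hypoxia genes, against 21.7% of all 27305 genes in the table. It overlaps the E-box CACGTG, which 6 of the hypoxia genes held. TGACNNNGC was present in 9 of the 23 NRF2 target genes, against 13.2% of all genes. TTTCCCGC was present in 6 of the 16 replication genes, against 1.70% of all genes. TTTGAA was present in 10 of the 17 mitosis genes, against 16.1% of all genes. A match describes these letters in this window and is no evidence of binding.

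Transcripts of the respiratory chain, iron storage, the cytoskeleton and carbonyl detoxification were the most abundant in the tumors. Coordinates are those of GENCODE on GRCh38. Levels between genes are given as TPM, the count divided by exon length and scaled to the same total in each tumor. The 20 highest genes held 11 mitochondrial mRNAs, both mitochondrial rRNAs and the mitochondrial tRNA gene MT-TN with the nuclear genes FTL, TMSB10, ALDH1A1, GAPDH, ACTG1 and CEACAM6. MT-CO1, a subunit of cytochrome c oxidase, stood first at 53575 ± 5384 TPM (SD, n = 7). FTL, the ferritin light chain (chr19:48965309-48966879), was the highest nuclear gene, with a lowest value of 10446 TPM, a median of 14745 and a highest of 24426. TMSB10, an actin-binding thymosin, followed at 12148 ± 2923 TPM. ALDH1A1, a retinal dehydrogenase, stood at 6582 ± 1353 TPM and AKR1B10, an aldo-keto reductase, at 4087 ± 774 TPM. CEACAM6, a cell surface glycoprotein raised in many adenocarcinomas, stood at 4643 ± 894 TPM. KRT18 and KRT8, the keratin pair of simple epithelia, reached 3394 ± 423 and 2577 ± 362 TPM. GPX2, a glutathione peroxidase of epithelia, reached 2950 ± 673 TPM. MTATP6P1, a nuclear copy of MT-ATP6, was listed at 3515 TPM, and the counts of the 2 genes cannot be told apart with confidence. FTL also has processed copies elsewhere in the genome, so its level is uncertain in the same way, and MT-TN has few exon bases, which makes its TPM large for its count.

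**Figure D1:**
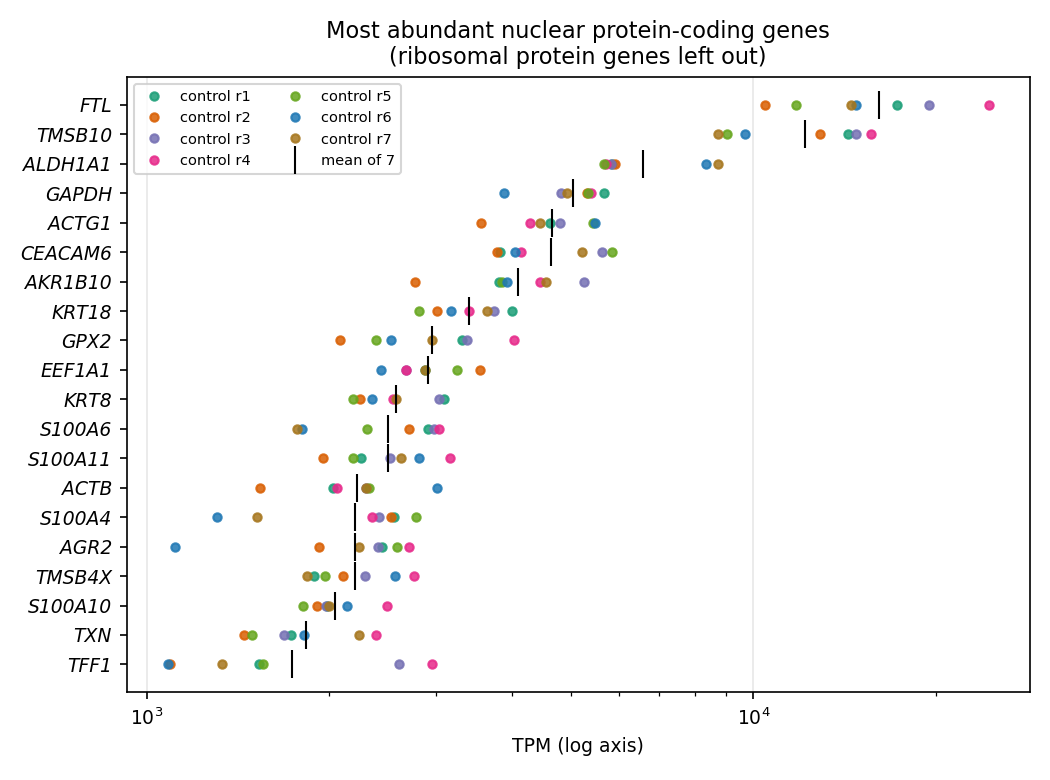
TPM (log axis) of the 20 most abundant nuclear protein-coding genes other than ribosomal protein genes. Each point is 1 of the 7 control tumors and each vertical bar the mean. FTL lies between 10446 and 24426 TPM, and control r6 is the lowest for AGR2 (1115 TPM) and TFF1 (1083 TPM).

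The tumors were epithelial, without the surfactant program that marks mature alveolar type II cells, the lineage to which A549 is often assigned. Of 14 markers of simple epithelia, 13 were measured above the minimum, and 8 reached 100 TPM or more. KRT7 stood at 1012 ± 214 TPM, KRT19 at 885 ± 248, the adhesion molecule EPCAM at 218 ± 34.3 and E-cadherin, CDH1, at 83.5 ± 14.5 TPM. Among 12 alveolar type II markers, 8 were under 1 TPM. NKX2-1, the lineage factor of lung adenocarcinoma, and SFTPA1 had at most 1 read in a tumor, SFTPB at most 3 and SFTPC at most 4. The members measured were the lipid enzyme LPCAT1 (75.3 ± 9.18 TPM), the lipid transporter ABCA3 (24.0 ± 7.77 TPM), SFTPD (1.94 ± 0.859 TPM) and NAPSA (1.74 ± 0.419 TPM). HOPX and PDPN, markers of alveolar type I cells, had no reads in any tumor, which allows up to 3 reads in each. AGER was the highest of that list at 7.81 ± 1.57 TPM.

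Factors of the gut and foregut endoderm were expressed. In this list 13 of 14 genes were measured, none with a 4-fold range, against 2.31% of all genes tested. With that share, a list of this length would often hold none, so this shows little. KLF5 stood at 190 ± 35.3 TPM, SOX9 at 95.1 ± 19.1, FOXA1 at 82.6 ± 17.0 and HNF4A, a master regulator of liver and gut genes, at 19.6 ± 4.74 TPM. CDX2, an intestinal factor, was low at 2.57 ± 1.01 TPM, and PDX1 was under 1 TPM. The neuroendocrine factors NEUROD1 and INSM1 had no reads, and CHGB, a granule protein, was the highest of that list at 8.69 ± 3.45 TPM. In the ciliated list, TPPP3 stood at 22.4 ± 9.63 TPM, and FOXJ1, the factor that drives motile cilia, had a range of 2.54 log2 CPM at 5.70 ± 3.94 TPM. In the club cell list, the secreted BPIFB1 was the highest at 12.0 ± 7.30 TPM, with a range of 2.52 log2 CPM, and SCGB3A2 had no reads. Of the basal and squamous markers, TP63 stood at 33.6 ± 8.72 TPM and SOX2 at 14.9 ± 2.97 TPM. KRT15, KRT6A and KRT5, 3 of the 5 members measured, had a range of 4-fold or more, against 2.31% of all genes tested. KRT15, a keratin of basal cells, had a lowest value of 4.72 log2 CPM in control r6, against 6.20 to 7.71 in the other tumors.

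**Figure D2:**
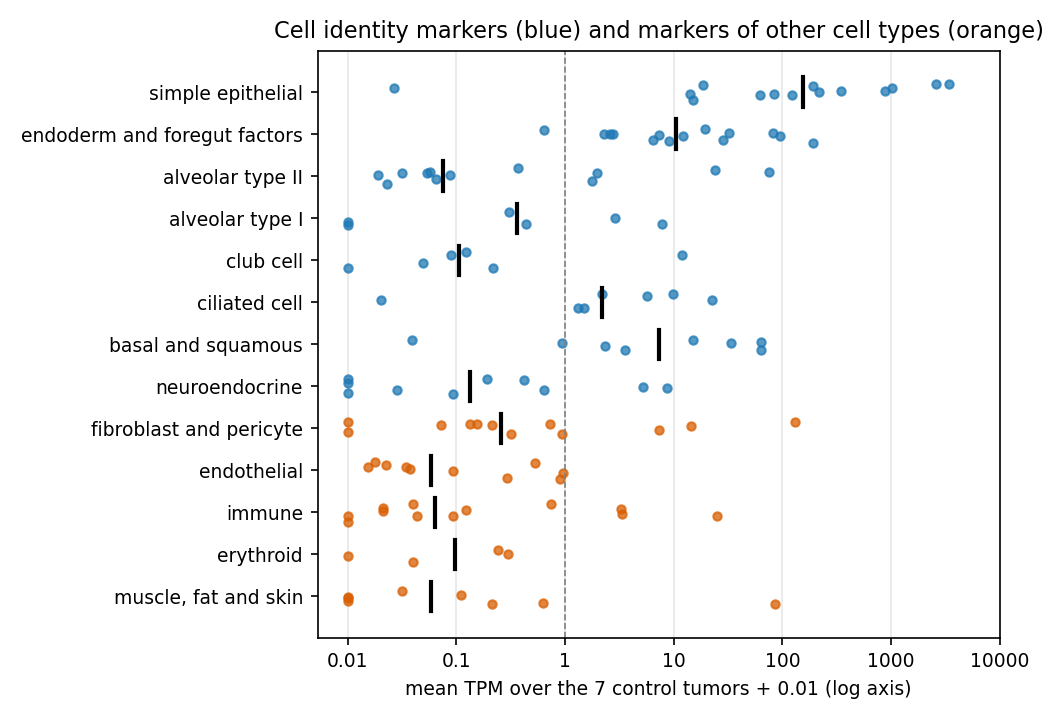
Mean TPM over the 7 control tumors (log axis, 0.01 added) of each marker of cell identity (blue) and of other cell types (orange), with the median of each list as a black bar and 1 TPM as a dashed line. Simple epithelial markers lie mostly above 10 TPM, and the medians of alveolar, neuroendocrine, endothelial, immune and erythroid markers lie below 1 TPM.

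Most markers of other cell types were near 0 in these counts, from which host reads had been set aside. Of 10 endothelial markers all were under 1 TPM, and their summed level was 1.41 to 3.85 TPM. The immune markers PTPRC, CD3E, MS4A1 and TYROBP were at 8 reads or fewer in every tumor, and the immune sum of 14.3 to 51.6 TPM had LYZ (24.9 ± 12.0 TPM) as its highest member, lysozyme, which glandular epithelia also make. HBA2 had no reads and HBB at most 9. COL1A2 and POSTN, which define fibroblasts, had no reads in any tumor, and DCN, PDGFRA, THY1 and COL3A1 were under 1 TPM. The summed level of the fibroblast and pericyte list was lowest in control r2 (103 TPM) and highest in control r6 (229 TPM), and the proteoglycan LUM, at 78.1 to 192 TPM, made up most of it, with COL1A1 next at 14.5 ± 5.17 TPM. KRT10, a keratin of skin, was at 85.6 ± 19.5 TPM. In such bulk samples, fewer cells of a kind and less RNA per cell cannot be told apart.

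Of 21 cancer genes, 17 were measured and none had a range of 4-fold or more, against 2.31% of all genes tested. At that share, finding none in so short a list shows little. Cyclin D1, CCND1, stood at 197 ± 43.9 TPM, the receptor MET at 106 ± 25.5, CDK4 at 88.3 ± 5.48 and KEAP1 at 58.4 ± 13 TPM. MYC was at 34.5 ± 7.65 TPM, NFE2L2 (which encodes NRF2) at 20.7 ± 4.53, EGFR at 20.2 ± 6.15 and RB1 at 19.3 ± 5.52 TPM. ERBB2 and ERBB3, receptors of the EGFR family, were at 43.3 ± 7.52 and 38.0 ± 8.00 TPM. STK11 stood at 16.0 ± 3.09 TPM and CDK6 at 14.5 ± 3.59. SMARCA4, a remodeler ATPase, was at 4.23 ± 0.64 TPM and its paralog SMARCA2 at 11.7 ± 2.29 TPM. CD274 and TERT were low, at 1.23 ± 0.576 and 1.06 ± 0.45 TPM. CDKN2A and CDKN2B had no reads in any of the 7 tumors, which allows up to 3 reads in each, and the neighboring MTAP had 1 to 9 reads. MYC was lowest in control r2 (5.41 log2 CPM) and highest in control r6 (6.48 log2 CPM). EGFR ran from 5.98 log2 CPM in control r1 to 7.03 in control r6.

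NRF2 target genes had the highest summed level of the 14 programs, 25167 to 46501 TPM. Of the 34 genes, 22 reached 100 TPM. Beside FTL, AKR1B10 and GPX2, TXN (thioredoxin) stood at 1829 TPM, AKR1C2 at 1415 ± 221, AKR1C3 at 1199 TPM, the quinone reductase NQO1 at 989 ± 158 and the pentose phosphate enzyme PGD at 903 ± 113 TPM. TXNRD1, thioredoxin reductase, was at 505 ± 88.3 TPM. UGT1A6 was lowest, under 1 TPM, and 64.7% of its exon bases are shared with other genes. AKR1C1 and AKR1C2 are near-identical copies, so the split between them is uncertain. A range of 4-fold or more was found in 2 of the 32 members measured, against 2.31% of all genes tested. These were FTH1, the ferritin heavy chain (range 2.36 log2 CPM, lowest in control r7, with 63.2% of its exon bases shared with genes on either strand), and CYP4F11, a fatty acid hydroxylase (range 2.20 log2 CPM, lowest in control r2). The score of the program, the mean deviation of its members in log2 CPM, was lowest in control r2 (-0.42) and highest in control r4 (0.38).

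Hypoxia genes differed widely between tumors. Of the 22 genes, all measured, 5 had a range of 4-fold or more and 18 a range of 2-fold or more, against 2.31% and 29.2% of all genes tested, and the median SD was 0.51 log2 CPM against 0.28 over all genes. HK2, the hexokinase that starts glycolysis (chr2:74834127-74893359), was at 1.71 log2 CPM in control r6 and 5.05 in control r5, with 3.24, 4.43, 3.55, 3.31 and 3.47 in control r1, r2, r3, r4 and r7. CA9, a carbonic anhydrase that exports acid, was at 2.83 log2 CPM in control r6 and at 4.09 to 5.36 in the other tumors. EGLN3, an oxygen-sensing hydroxylase, had its lowest value in control r6 (5.65 log2 CPM), a median of 6.85 and its highest in control r2 (8.15). ADM, a vasodilator peptide, ran from 4.14 log2 CPM in control r6 to 6.48 in control r2. NDRG1, a stress-response gene, ran from 7.28 to 9.70 in the same tumors. Control r2 and r5 were the highest and control r6 the lowest for most of these genes. The glycolytic enzymes ENO1 and LDHA were the most abundant members, at 1062 ± 56.1 and 873 ± 109 TPM, and varied little, with ranges of 0.39 and 0.44 log2 CPM. ANKRD37 was the lowest at 3.21 ± 0.891 TPM. ALDOA was listed at 9.88 TPM, but 42.8% of its exon bases are shared with another gene on the same strand. The score of the list was 0.61 in control r2 and 0.59 in control r5, 0.02 in control r3, -0.11 in control r1, -0.20 in control r4, -0.25 in control r7 and -0.68 in control r6. Control r2 and r5 thus stood apart from the rest on the high side, and control r6 on the low side.

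DNA replication genes had the reverse order. All 20 were measured, with a summed level of 739 TPM in control r2 and 1526 TPM in control r6. None had a 4-fold range, but 16 had a 2-fold range or more, against 2.31% and 29.2% of all genes. PCNA, the sliding clamp of the replication fork, was the highest at 400 ± 104 TPM and CCNE2, a cyclin of the G1 to S transition, the lowest at 2.92 ± 0.893 TPM. MCM5, a subunit of the replicative helicase, had its lowest value in control r2 (4.44 log2 CPM), a median of 5.45 and its highest in control r6 (6.23). The licensing factor CDT1 ran from 3.51 log2 CPM in control r2 to 4.81 in control r6. GINS2, a subunit of the GINS complex, ran from 3.23 in control r5 to 5.07 in control r4. The score ran from -0.52 in control r2 to 0.66 in control r6.

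Mitosis genes followed DNA replication genes. Of 22 genes, 21 were measured and all 21 had a range of 2-fold or more, against 29.2% of all genes tested. Control r6 was at the top for most. TOP2A, the topoisomerase that untangles chromosomes, had its lowest value in control r2 (7.06 log2 CPM), a median of 7.49 and its highest in control r6 (8.96). CCNB1, the cyclin of mitotic entry, ran from 5.36 log2 CPM in control r2 to 7.19 in control r6. MKI67, the proliferation marker, ran from 6.00 to 7.58 in the same tumors and CDC20, an activator of the anaphase-promoting complex, from 3.78 to 5.75. TTK, a spindle checkpoint kinase, was the member with a 4-fold range (2.03 log2 CPM). NUSAP1 was under 1 TPM and was not counted, with 86.8% of its exon bases shared with another gene. The score was 0.80 in control r6, 0.46 in control r4, 0.26 in control r7, -0.07 in control r1, -0.28 in control r3, -0.36 in control r5 and -0.81 in control r2. No tumor with a mitosis score above 0 had a hypoxia score above 0.

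Across the 7 tumors, 3 of the 91 pairs of the 14 program scores passed an adjusted p of 0.05 and 11 had an unadjusted p under 0.05. The lists share no gene. Hypoxia and DNA replication scores ran opposite to each other (r = -0.94, exact permutation p = 0.000198, the smallest that the pairings of 7 tumors can give, adjusted p = 0.0181; rho = -1, exact permutation p = 0.000397). Without control r2 and r5, the 2 tumors farthest from the median hypoxia score, r was -0.98. Control r6, the tumor of lowest hypoxia score, remained in that value. DNA replication and mitosis scores ran together (r = 0.98, exact permutation p = 0.000794, adjusted p = 0.0361; rho = 0.96, exact permutation p = 0.00278), with r = 0.97 without the 2 tumors of most extreme replication score. Mitosis and sterol synthesis scores also ran together (r = 0.93, exact permutation p = 0.00159, adjusted p = 0.0481; rho = 0.93, exact permutation p = 0.00675), with r = 0.91 without the 2 tumors of most extreme mitosis score. With the GC trend kept, this last pair had an adjusted p of 0.106 in the exact permutation test. Hypoxia and mitosis scores had r = -0.92 (exact permutation p = 0.00377, adjusted p = 0.0858), which missed the threshold. The 3 pairs that passed overlap in their programs and are not separate relations. With the GC trend removed, PC1 of the tumors had r = 0.97 with the mitosis score and 0.94 with DNA replication. Its r was -0.92 with hypoxia and 0.87 with sterol synthesis. The genes of these lists were part of that component analysis. Of the 22 hypoxia genes, 21 correlated positively with the score of the others and 20 negatively with DNA replication. All 20 replication genes and all 21 mitosis genes correlated negatively with the hypoxia score. Of all 13636 genes, 6794 correlated positively with the hypoxia score and 6925 negatively with the DNA replication score. These correlations are across tumors for single genes, which are not independent replicates. By library size alone, without TMM factors, none of the 91 pairs passed: hypoxia and replication had r = -0.88 (exact permutation adjusted p = 0.114) and replication and mitosis r = 0.97 (exact permutation adjusted p = 0.0542). The p-values give the share of all pairings of the 7 tumors with an r at least as large in size. The lists were chosen with earlier results of these data known, and 7 tumors limit what such relations can show.

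**Figure D3:**
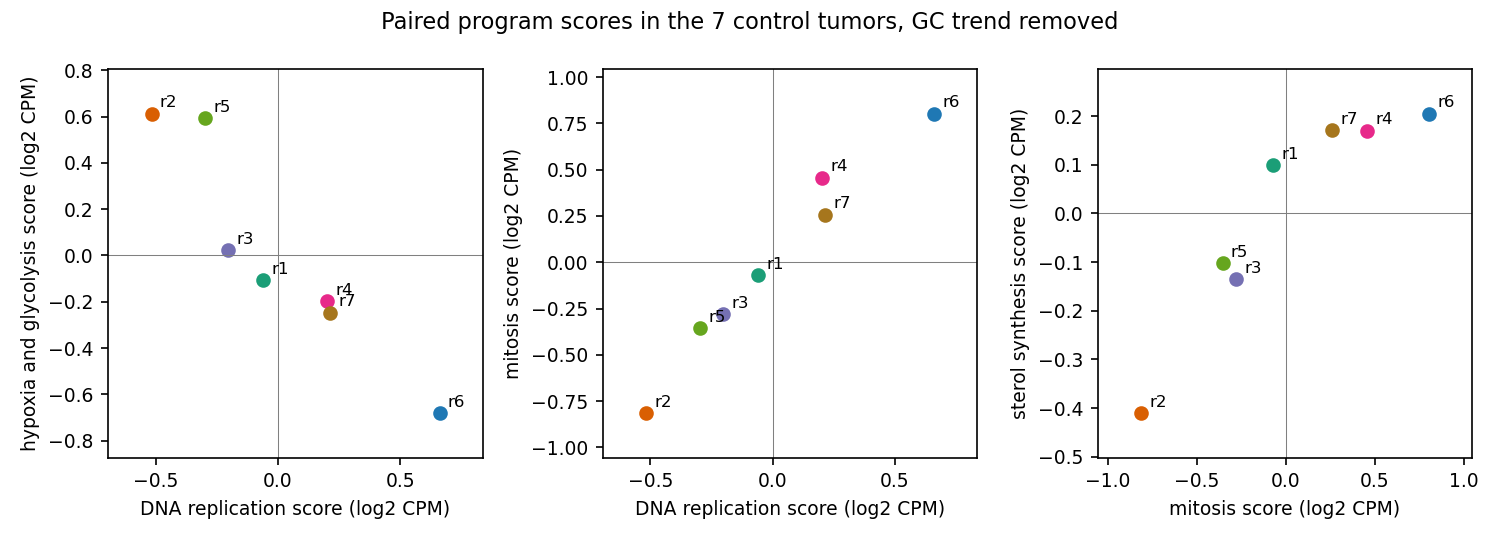
Scores of paired programs (mean deviation of the members in log2 CPM, GC trend removed), with 1 point for each of the 7 control tumors. Control r6 has the highest replication (0.66) and lowest hypoxia score (-0.68), and control r2 the lowest replication (-0.52) and highest hypoxia score (0.61).

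The depth and RNA composition of the libraries were set against the program scores. The GC trend was kept in the scores set against the GC slope and removed for the other measures. Of 42 relations of 14 scores with the GC slope, the total count and the share of mitochondrial mRNA, none passed an adjusted p of 0.05 in the exact permutation test of Pearson r. By unadjusted p, 1 was under 0.05 with Pearson r and 8 with Spearman rho, of which none passed after adjustment. The smallest p by Pearson r was that of the mitosis score and the share of mitochondrial mRNA (r = 0.78, exact permutation p = 0.0377, adjusted p = 0.451; rho = 0.86, exact permutation p = 0.0238). This r was 0.97 without the 2 tumors of most extreme share. For the other 3 programs of the paired scores above, Pearson r with the same share did not reach a p of 0.05. The exact permutation p was 0.0736 for DNA replication, 0.166 for hypoxia and glycolysis and 0.0649 for sterol synthesis. For DNA replication r was 0.70 (0.99 without these 2 tumors; rho = 0.79, exact permutation p = 0.048), for hypoxia and glycolysis -0.59 (-0.95; rho = -0.79, exact permutation p = 0.048) and for sterol synthesis 0.72 (0.85; rho = 0.86, exact permutation p = 0.0238). The part of this share in the differences between tumors and in the paired scores was not tested. The smallest p by Spearman rho was that of the mucous secretory score and the GC slope, with rho = 0.93 (exact permutation p = 0.00675) and r = 0.74 (0.85 without the 2 tumors of most extreme slope). The GC trend was kept in the score for this relation.

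Sterol synthesis genes, which the transcription factor SREBF2 drives, had a narrower span than hypoxia, DNA replication and mitosis genes. Their median SD was 0.31 log2 CPM, against 0.51, 0.42 and 0.59 in those lists and 0.28 over all genes. Of 19 genes, 18 were measured, none with a 4-fold range and 7 with a 2-fold range or more. The shares of all genes tested were 2.31% and 29.2%. FDFT1, which makes squalene, was the highest at 83.9 ± 16.9 TPM and SQLE, the next enzyme, stood at 64.7 ± 17.6 TPM. CYP51A1 was the lowest, under 1 TPM, with 68.2% of its exon bases shared with another gene on the same strand. The score was lowest in control r2 (-0.41), with -0.13 in control r3 and -0.10 in control r5, and lay between 0.10 and 0.20 in the other 4 tumors.

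**Figure D4:**
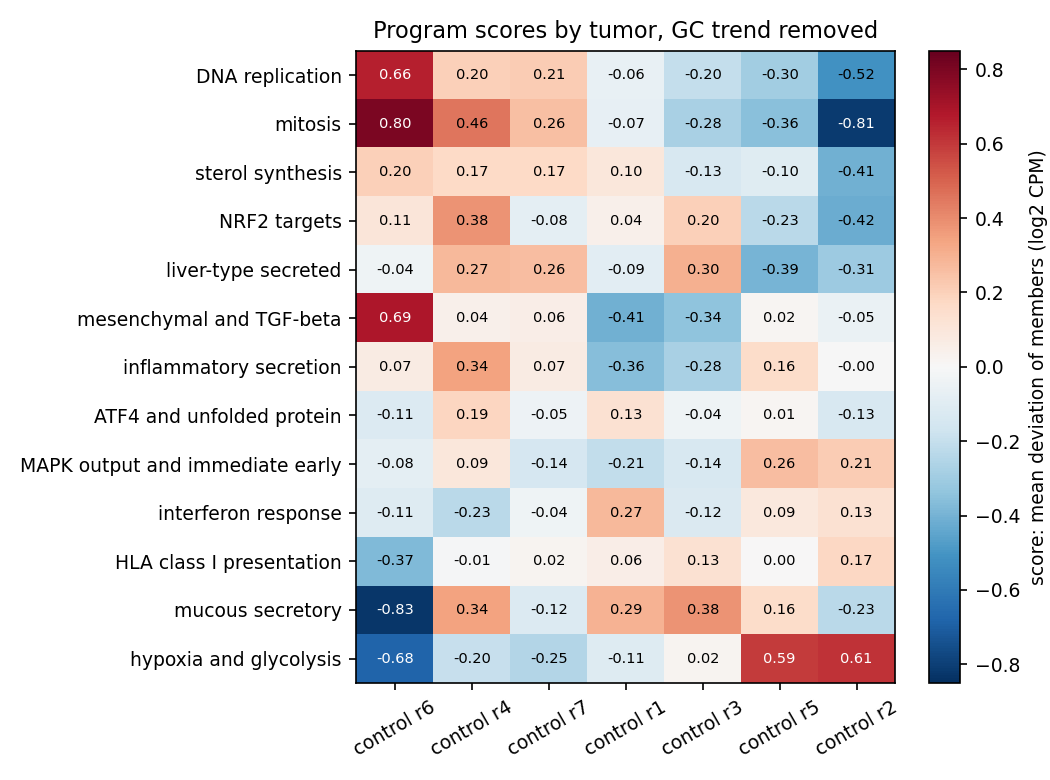
Scores of 13 of the 14 programs (rows) in each control tumor (columns, in order of the mitosis score), as the mean deviation of the members in log2 CPM with the GC trend removed. Control r6 holds the extreme score in DNA replication, mitosis, mesenchymal, mucous, HLA class I, sterol synthesis and hypoxia genes, and control r2 the opposite extreme in replication, mitosis, sterol synthesis, HLA class I and hypoxia genes.

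Mucous secretory genes were abundant and uneven. Their summed level was 3706 TPM in control r6 and 8881 TPM in control r3. Of the 14 genes, 5 had a range of 4-fold or more, against 2.31% of all genes tested. AGR2, a chaperone of mucin folding, stood at 2203 ± 542 TPM, the trefoil peptide TFF1 at 1736 ± 744 and the gel-forming mucin MUC5AC (chr11:1157953-1201138) at 1188 ± 530 TPM. MUC5AC had its lowest value in control r6 (11.47 log2 CPM), a median of 12.90 and its highest in control r1 (13.37). TFF2 (range 2.49 log2 CPM), TFF3 (2.14), AGR3 (2.10), FCGBP (2.0) and MUC4 (2.17) were the 5 with a 4-fold range, and each was lowest in control r6. MUC4 was the lowest member, under 1 TPM. SPDEF and FOXA3, factors of goblet cells, stood at 122 ± 42.0 and 24.1 ± 4.08 TPM. The score was -0.83 in control r6 and -0.23 in control r2, and at most 0.38 elsewhere. With the GC trend kept, the score was -0.90 in control r6 and ran with the GC slope of the libraries as given above. The relation of the trend-removed score with that slope was not tested.

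The score and the summed level of mesenchymal and TGF-beta genes were highest in control r6, though not every member need follow them. Of 16 genes, 12 were measured, and 2 had a 4-fold range, against 2.31% of all genes tested. One of the 2 was ITGB6, an integrin subunit that activates TGF-beta. VIM, the mesenchymal intermediate filament, was the highest at 516 ± 60.7 TPM with a range of 0.43 log2 CPM. TGFBI, a matrix protein induced by TGF-beta, was at 10.27 in control r6 and 8.51 to 9.46 in the others. MMP2, a gelatinase, was at 5.97 in control r6 and 3.98 to 5.14 in the others. ZEB2 was the lowest member, at 0.151 ± 0.0834 TPM. The score was 0.69 in control r6, next 0.06 in control r7, and lowest in control r1 (-0.41). The fibroblast and pericyte sum was also highest in control r6, at 229 TPM, with COL1A2 and POSTN at 0 in every tumor. The part of these markers in the score was not tested.

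HLA class I genes were lowest in control r6 (score -0.37, against -0.01 to 0.17 in the other tumors). B2M, the light chain of class I molecules, was the highest at 373 ± 68.9 TPM and ran from 7.97 log2 CPM in control r6 to 8.75 in control r2. HLA-B was at 3.49 log2 CPM in control r6 and 4.54 to 4.96 in the others, with 32.7% of its exon bases shared with another gene on the same strand. NLRC5, the activator of class I genes, was the lowest at 2.11 ± 0.445 TPM. Interferon response genes were low, and 6 of 25 were under the minimum. OAS1, a sensor of double-stranded RNA, was the highest at 74.5 ± 8.98 TPM and RSAD2 the lowest, with no reads in 5 tumors. Interferon and HLA class I scores had r = 0.35 (exact permutation p = 0.469, adjusted p = 0.790; rho = 0.46, exact permutation p = 0.302), which did not pass.

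Among genes of MAPK output, JUNB stood highest at 163 ± 34.9 TPM and EPHA4 lowest at 1.69 ± 0.503 TPM. DUSP4, an ERK phosphatase, was at 124 ± 28.6 TPM. Of the 22 members measured, 2 had a 4-fold range, against 2.31% of all genes tested. These were the phosphatase DUSP5, from 3.25 log2 CPM in control r7 to 5.56 in control r5, and the immediate early gene FOSB, from 0.56 in control r7 to 2.80 in control r4. In the ATF4 and unfolded protein list, the amino acid transporter SLC7A5 was the highest at 553 ± 132 TPM and ASNS the lowest at 1.33 ± 0.498 TPM, with 49.3% of its exon bases shared with another gene. PHGDH, the first enzyme of serine synthesis, had a range of 2.28 log2 CPM and was lowest in control r2.

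Secreted proteins of the liver and of inflammation were part of the baseline. The 3 fibrinogen chains FGA, FGG and FGB stood at 437 ± 151, 385 ± 139 and 299 ± 99.7 TPM, whereas APOB and APOA2 had no reads. VTN (vitronectin) and TTR (transthyretin) had 4-fold ranges, and both were lowest in control r2 and highest in control r3. The neutrophil chemokines CXCL5, CXCL1 and CXCL8 stood at 817 ± 234, 190 ± 28.0 and 92.8 ± 30.4 TPM, while IL6 was under 1 TPM and SAA2 was the lowest, with reads in 1 tumor. LCN2, an iron-scavenging lipocalin, ran from 5.01 log2 CPM in control r6 to 7.59 in control r1, a 4-fold range or more.

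Of 11 genes of WNT feedback, 6 were measured. DKK1, a secreted WNT inhibitor, was the highest at 269 ± 67 TPM. AXIN2 stood at 5.59 ± 1.25 TPM and LEF1 had no reads. All 8 Hedgehog genes listed were measured at low levels: SMO was the highest at 23.4 ± 2.44 TPM, GLI2 stood at 9.54 ± 1.73, GLI1 at 5.16 ± 1.99 and HHIP, the lowest, at 1.54 ± 0.688 TPM. GLI1 ran from 2.06 log2 CPM in control r7 to 3.63 in control r6. Among metallothioneins and zinc genes, MT2A stood at 163 ± 28.2 TPM, MT1E, MT1G and MT1M had no reads, and MT1X had a range of 2.48 log2 CPM with its lowest value in control r6. Heat shock genes had a summed level of 4486 TPM in control r6 and 2301 to 2975 TPM in the others. HSP90AA1, the inducible HSP90, ran from 9.89 log2 CPM in control r1 to 11.22 in control r6, and DNAJB1 was the lowest at 52.4 ± 6.36 TPM. HSPA1A and HSPA1B are near-identical copies, so their split is uncertain. NEAT1 and MALAT1, nuclear long noncoding RNAs, stood at 226 ± 83.8 and 151 ± 60.4 TPM and were highest in control r2 and lowest in control r6 on the log2 CPM scale. MIR210HG, the host transcript of the hypoxia microRNA miR-210, ran from 2.53 log2 CPM in control r6 to 5.27 in control r2.

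Over the whole table, 315 of the 13636 genes had a range of 4-fold or more (2.31%), of which 265 were protein-coding, and 3978 a range of 2-fold or more (29.2%). With the GC trend removed, 261 genes had a 4-fold range, and 230 were in both sets. Without control r6, 184 genes had a 4-fold range. The 20 protein-coding genes of highest SD included CALB1, NTS, TNFAIP6, OR51E1, IGFBP5, STC2, SEMA4A, MUC2, TSPAN7, NXPH4, KRT20, PPFIA4, TMEM63C, SLC13A2, STC1, RFX6, SCGN and PKHD1, and 17 of the 20 were among the 20 with the trend removed, which added NPTX1, TNFSF14 and CSTA. The genes were picked by this value, so it has no test. CALB1, a calcium-binding protein of neurons and kidney, had an SD of 1.54 log2 CPM and was at 1.68 in control r6, 1.94 in control r4, 3.16 in control r3, 3.75 in control r2, 4.06 in control r7, 4.45 in control r1 and 6.18 in control r5. NTS, the gut peptide neurotensin (chr12:85874295-85882992), was at 3.76 log2 CPM in control r2 and 4.95 in control r5, against 6.30 to 7.75 in the other 5 tumors. TNFAIP6, a hyaluronan-binding protein, was at 0.00 in control r5 and 3.75 in control r6. OR51E1, an olfactory receptor expressed outside the nose, was at 3.36 in control r2 and 7.38 in control r7. IGFBP5, which binds insulin-like growth factors, and the stanniocalcin STC2 were highest in control r2, at 5.70 and 4.77. STC1, the other stanniocalcin, was at 7.44 in both control r2 and r5 and at 4.88 to 6.17 in the others. NPTX1, a secreted pentraxin (chr17:80466834-80477843), was at 9.05 in control r6 and 5.83 to 6.71 in the others. In SCGN, 60.5% of the exon bases are shared with another gene on the same strand. At the other end, the 10 least variable genes with a mean of at least 5 log2 CPM were CS, PPP3R1, ACAD10, PTPRA, ACTR10, RTN3, ASH2L, AHCYL1, PTPN9 and CRCP, with SDs of 0.04 to 0.05. CS, the citrate synthase of the mitochondrial matrix, ran from 7.91 to 8.03 log2 CPM.

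**Figure D5:**
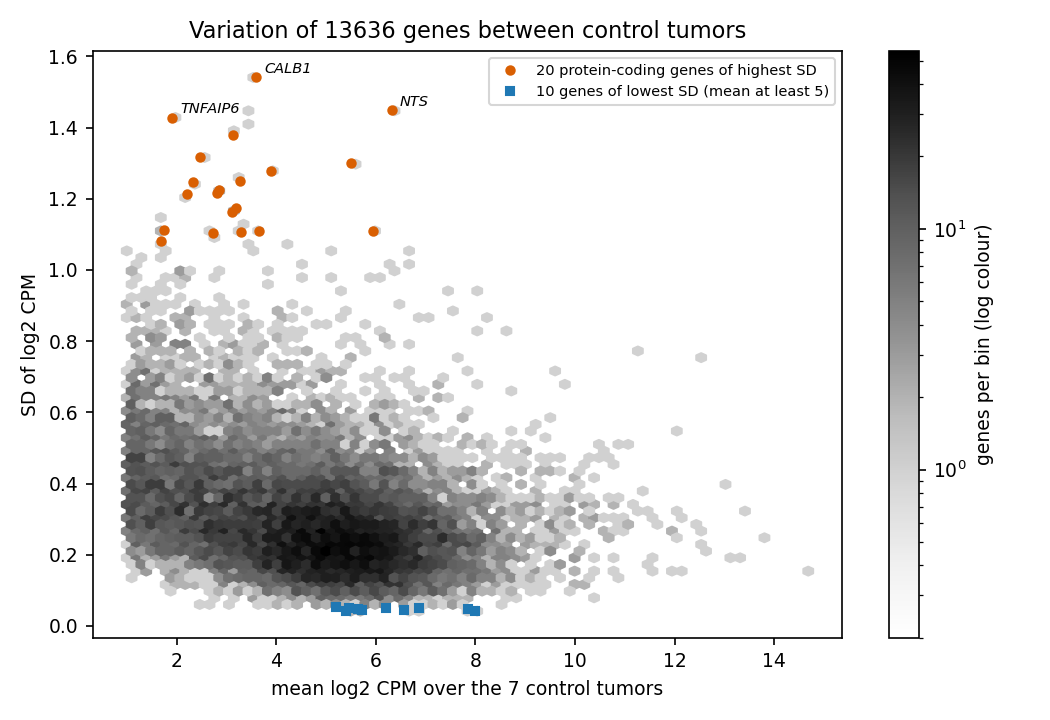
SD between the 7 control tumors against mean log2 CPM for the 13636 genes tested (grey, darker with more genes per bin). The 20 most variable protein-coding genes (orange) include CALB1 with an SD of 1.54 and NTS with 1.45, and the 10 least variable genes (blue) lie at 0.04 to 0.05.

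The 300 genes of highest SD fell into 9 groups of at least 10 genes that varied together (Pearson correlation over 7 tumors, average linkage, GC trend removed), with 222 genes in all. As the genes were clustered on these values, the groups are a description. The largest, of 61 genes, was low in control r6 and led by SPAG4, MIR210HG, PIP, SEMA4A, MYO16-AS1, CA9, EEF1A2 and SCIN. It held 4 of the listed hypoxia genes, CA9, EGLN3, NDRG1 and HK2, with TXNIP and KRT15. A group of 30 was high in control r6 and led by NECTIN4, TGFB2, MRC2, COL4A1, GABRA5, CDH4, NPTX1 and SPOCK1, and MMP2 belonged to it. COL4A1, a collagen of basement membranes, was at 6.99 log2 CPM in control r6 and 4.68 to 5.89 in the others, and TGFB2, a ligand of the TGF-beta family, at 4.47 against 2.11 to 3.40. A group of 23 was high in control r2 and r5 and led by LYPD3, COL17A1, IGFBP5, STC2, STC1, ADM, POU2F2 and AUXG01000058.1. It also held SLC2A3, a glucose transporter, IGFBP3 and TNC. Another group of 23 was low in these 2 tumors and led by CPN1, NEB, NTS, ECEL1, RBP4, SULT1E1 and OR51E2. Control r2 was also lowest in a group of 21 led by TTR, SLC13A2, ADRA2A, LGALS2, SLC39A5, GCKR and REG4, and in a group of 20 led by GSTA2, LGALS4, INHBB, MAP2, MUC12, TM4SF20, RTN4RL2 and ASPG. A group of 12 was low in control r6 and led by LYZ, CHST2, TMEM63C, BPIFB1, AZGP1, SSTR5-AS1, TAC3 and LINC00632, with MUC2 and KRT20. A group of 17 led by COX6A1, MT-TY, RPL41P1, RPL41, AL450405.1, MT-TN, C12orf57 and MT-TC was low in control r5, r6 and r7, and 8 of its members were not protein-coding genes. FTH1 of the NRF2 target list belonged to this group. A group of 15, high in control r2 and low in control r4, was led by AC004263.2, CICP14, AC012676.5, AC108010.1, ZC3HAV1L, TSSK4, AC005046.1 and PKD1P3, and 3 of its members were protein-coding.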

How the data were processed

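Total RNA of xenograft tumors was sequenced in the study (NEBNext Ultra II libraries). The authors trimmed reads with Trimmomatic 0.39, aligned them with STAR 2.7.6a to a combined human (GRCh38.p13, GENCODE 37) and mouse (GRCm39) genome, kept human alignments, and deposited raw counts per gene from featureCounts (Subread 2.0.1) on unique reads. The strand setting is not given in the sources used here.

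Only the 7 Control columns of the raw count table were used. The deposited normalized table was not used, because it was scaled together with treated samples. Counts were filtered (filterByExpr) and scaled by TMM in edgeR 4.0.16, log2 CPM took a prior count of 2, and genes with a mean under 1 log2 CPM were not tested. TPM used union exon lengths of GENCODE 44, a release later than that of the counts, and 214 genes without a length took 0.0280% of counts. A range of 2 log2 CPM (4-fold) or of 1 (2-fold) between the lowest and highest tumor was called. Program scores are the mean deviation of a list's genes after a natural spline on GC content (4 df) was removed from each library. Scores set against the GC slope kept this trend. Correlations over 7 tumors used exact two-sided permutation tests over all pairings with Benjamini-Hochberg adjustment. Steps were tested on simulated data.

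Members and gene lists were chosen with earlier results of these data known. Named genes were the 20 of highest TPM and the 10 highest other than mitochondrial and ribosomal protein genes, the highest, lowest and 4-fold members of each list, all cancer genes, the 20 most and 10 least variable genes, and the 8 leading genes of each group. Some genes that this rule names, and 1 program, are not reported here. Further members of a list were named, by their known role, after values were seen. Intervals and floors cover counting error only. Nothing in the labels ties replicate numbers to a batch, and the tumors came from separate mice.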

Additional observations from a re-analysis of the deposited data

Results flagged for a closer look

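Of 117 sets of 7 tumor values tested with Dixon's test for a sample far from the others, 6 passed, where chance gives about 5.85. That figure assumes separate sets chosen without regard to these values. NPTX1 and the gene groups were picked by their spread over the same tumors, and NPTX1 belongs to the group of 30 genes. The sets that passed are therefore a description. In 5 of the 6 sets that passed, the tumor was control r6. Its score of HLA class I presentation was -0.37, with the next tumor at -0.01. Its score of mesenchymal and TGF-beta genes was 0.69, with the next at 0.06. The mean of the group of 30 genes led by NECTIN4 and TGFB2, in SD units, was 1.94 in control r6 and next 0.17. The summed level of heat shock genes was 4486 TPM in control r6 and next 2975 TPM. NPTX1, the secreted pentraxin, was at 9.05 log2 CPM in control r6 and next at 6.71. The sixth was S100A10, an annexin partner of the S100 family, at 9.94 log2 CPM in control r4 and next at 9.43.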

How the results depend on the processing

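No paired analysis was possible because a single group was described and no other group entered. With library size alone in place of TMM factors, the median of all genes shifted by -0.129 (control r4) to 0.0432 (control r5) on the log2 scale and 0 pairs of scores passed: replication with mitosis had r = 0.97 (exact permutation adjusted p = 0.0542), hypoxia with replication -0.88 (0.114) and mitosis with sterol synthesis 0.92 (0.114). Mitosis with sterol synthesis also missed the threshold with the GC trend kept (0.90, adjusted p = 0.106 in the exact permutation test), with deviations divided by the gene SD (0.92, 0.0903) and by Spearman rho (0.93, 0.102). By Spearman rho 1 pair passed, and replication with mitosis had 0.96 (exact permutation adjusted p = 0.0506). Genes with a 4-fold range numbered 3416 with no filter and no minimum mean, and 3978 genes had a 2-fold range. PC1 held 43.7% of the variance in the 500 most variable genes. Leaving out each tumor gave 184 (without control r6) to 298 genes with a 4-fold range, a PC1 share of 35.9% to 43.1%, r of 0.27 to 0.93 for PC1 with the GC slope, 0.98 to 0.99 for replication with mitosis, -0.97 to -0.90 for hypoxia with replication, 0.90 to 0.96 for mitosis with sterol synthesis and 0.23 to 0.50 for interferon with HLA class I. It left 0 to 0 pairs and 0 to 0 library relations past the threshold, with exact permutation adjusted p from 0.0632 to 0.228 for the 3 pairs that passed with 7 tumors. With 720 pairings of 6 tumors, a pair whose p no other pair matches cannot go below 0.126, so these p-values say nothing about stability. TPM without mitochondrial genes moved all 10 abundant genes compared by over 1 SD. No result reversed, and the causes were not tested.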
